A study of Homo sapiens with 34 samples.

Results

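Fibroblast growth factors (FGFs) and the Sprouty proteins that restrain them were followed through a course of cardiac differentiation of human embryonic stem cells. The 10 genes described here are 8 FGF ligands (FGF2, FGF4, FGF8, FGF9, FGF10, FGF17, FGF18 and FGF19) and 2 feedback inhibitors (SPRY1 and SPRY2), taken by symbol from a table of raw read counts that names 23189 genes. Where a symbol had several RefSeq rows, as for FGF8 (5 rows) and SPRY1 (4 rows), the row with the largest total was used. The cells were H1, an established human embryonic stem cell line. Knockdown lines carried a lentivirus with an shRNA to NKX2-5, to ZEB2 or to ZNF503, and the cells called WT carried one to GFP or the empty vector. 1 shRNA was used per gene, the one of those tried that lowered its target most, so an effect of that shRNA and an effect of the gene cannot be told apart. Undifferentiated cells (day 0) were kept in Essential 8 medium, which contains FGF2. Differentiation medium lacked FGF2, TGFβ and insulin, and the GSK3β inhibitor CHIR99021 was present for the first 24 hours, the Wnt inhibitor IWP2 on days 2 through 5 and insulin from day 7. RNA was sequenced at days 0, 2, 6 and 10 in WT, NKX2-5 shRNA and ZEB2 shRNA cells and at days 0, 2 and 6 in ZNF503 shRNA cells, with 2 libraries in each of these 15 groups. Day 10 of the ZNF503 knockdown was not analysed here.

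FGF ligands are secreted proteins that bind receptor tyrosine kinases (FGFR1 to FGFR4) with heparan sulphate or a Klotho protein as partner and signal mainly through the RAS-ERK cascade. In stem cells FGF2 helps maintain the undifferentiated state, in gastrulating embryos FGF4, FGF8 and FGF17 are made in the primitive streak and its mesoderm, and in the forming heart FGF8 and FGF10 mark the second heart field while FGF9 acts on myocardial growth. Sprouty genes are switched on by ERK signalling and their products dampen it, so that their transcripts are often read as a record of pathway activity.

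Positions are given in GRCh37 (hg19) coordinates of the GENCODE annotation. FGF2 (NM_002006) spans chr4:123747837-123819391 on the plus strand, and SPRY1 (NM_001258038), at chr4:124317950-124324915, begins 498558 bases beyond its end. FGF19 (NM_005117, chr11:69513006-69518790) and FGF4 (NM_002007, chr11:69585790-69590109), both on the minus strand, are separated by 66999 bases. The others are FGF8 (NM_033163, chr10:103529866-103540128, minus), FGF9 (NM_002010, chr13:22245212-22278637, plus), FGF10 (NM_004465, chr5:44300349-44389808, minus), FGF17 (NM_003867, plus), FGF18 (NM_003862, chr5:170846651-170884630, plus) and SPRY2 (NM_005842, chr13:80910111-80915261, minus). FGF2 shares 704 exonic bases with NUDT6 on the opposite strand, 10.6% of the FGF2 exons and 57.4% of those of NUDT6, and whether the counting used strand is not stated.

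The 250 bases before the start of transcription are shown for FGF10, FGF18, SPRY1 and SPRY2, the genes with an entry in the RefSeq promoter table (GRCh38.p14) that were lower in more than 1 knockdown line at day 6 or day 10. Capitals mark the ETS-type letters CCGGAA or their reverse TTCCGG, the kind of site bound by the ETV factors of the FGF pathway.
FGF10, chr5:44389421-44389670, minus strand: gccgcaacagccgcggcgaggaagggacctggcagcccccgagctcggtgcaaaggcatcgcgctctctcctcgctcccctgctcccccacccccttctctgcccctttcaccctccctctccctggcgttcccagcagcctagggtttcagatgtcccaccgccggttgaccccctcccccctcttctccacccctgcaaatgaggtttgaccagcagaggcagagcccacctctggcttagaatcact
FGF18, chr5:171419397-171419646, plus strand: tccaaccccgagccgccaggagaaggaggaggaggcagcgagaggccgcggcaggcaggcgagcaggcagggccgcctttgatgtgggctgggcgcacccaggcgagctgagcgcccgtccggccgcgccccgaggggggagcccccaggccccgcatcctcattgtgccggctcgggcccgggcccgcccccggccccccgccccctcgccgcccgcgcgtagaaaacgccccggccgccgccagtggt
SPRY1, chr4:123396545-123396794, plus strand: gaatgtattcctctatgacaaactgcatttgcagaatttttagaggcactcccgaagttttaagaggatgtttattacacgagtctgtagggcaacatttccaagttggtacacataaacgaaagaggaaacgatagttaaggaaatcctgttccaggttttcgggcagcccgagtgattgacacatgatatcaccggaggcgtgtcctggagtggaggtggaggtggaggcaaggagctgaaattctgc
SPRY2, chr13:80341127-80341376, minus strand: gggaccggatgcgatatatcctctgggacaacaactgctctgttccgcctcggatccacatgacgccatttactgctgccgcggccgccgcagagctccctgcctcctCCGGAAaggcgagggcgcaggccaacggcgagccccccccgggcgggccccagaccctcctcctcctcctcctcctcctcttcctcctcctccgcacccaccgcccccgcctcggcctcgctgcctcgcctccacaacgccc
The letters CCGGAA or TTCCGG occurred once in the SPRY2 window and not in those of FGF10, FGF18 or SPRY1. Of all 35116 promoter windows of the same length, 14.5% held them. These letters were chosen for the search after the sequences had been read. The letters AAGTG or CACTT, a core of NKX2-5 family sites, occurred in 37.6% of all windows, and CACCTG or CAGGTG, the E-box bound by ZEB proteins, in 17.5%. Neither was in any of the 4 windows. The SPRY1 window was the poorest of the 4 in G and C, at 45.6% against 65.6% for FGF10, 70.4% for SPRY2 and 78.8% for FGF18. Where SPRY1 and SPRY2 have several starts in the table, the most upstream one was taken. A match is a description of letters and not of a bound site, and a missing match says only that the letters are not in this window.

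Libraries held from 9189943 to 90814577 counts (median 32191176), and day 10 was the shallowest, with a highest total of 29549874. At that depth a count of 3, taken as the limit of detection, stood for 0.102 to 0.326 CPM (counts in a library scaled to a total of 1000000) at day 10 and 0.033 to 0.0774 at day 0. A group whose libraries all held 3 counts or fewer is called at the limit of detection. 4 libraries, replicates 1 and 2 of WT and of ZEB2 shRNA cells at day 10, were left out. Their columns hold 1077 more rows than there are accessions and do not follow the order of the accessions. Day 10 thus rests on replicates 3 and 4 there, while NKX2-5 shRNA cells at day 10 and all groups of earlier days rest on replicates 1 and 2. The labels do not say whether differently numbered replicates were handled apart. Such a difference could not be told apart from that of NKX2-5 shRNA cells at day 10, or from the step between days 6 and 10 in WT and ZEB2 shRNA cells. Of the targeted genes, NKX2-5 was at 0.993 and 0.761 CPM in NKX2-5 shRNA cells at day 6 against 84.2 and 50.4 in WT cells, ZNF503 was at 0.611 and 0.648 in ZNF503 shRNA cells at day 6 against 8.71 and 9.33, and ZEB2 was at 54.6 and 57.1 in ZEB2 shRNA cells at day 6 against 96.8 and 94.1. All 3 differences passed the test described next, with log2 fold changes of -6.30, -3.84 and -0.77. Low levels were not particular to the line with that target. At day 6 ZNF503 averaged 0.745 CPM in NKX2-5 shRNA cells, and NKX2-5 averaged 2.48 in ZNF503 shRNA cells. ZEB2 averaged 20.5 in NKX2-5 and 11.8 in ZNF503 shRNA cells, below its level in ZEB2 shRNA cells. In ZEB2 shRNA cells NKX2-5 averaged 36.0 and ZNF503 12.5. At day 2 neither ZEB2 in ZEB2 shRNA cells nor ZNF503 in ZNF503 shRNA cells passed, and at day 10 ZEB2 stood at -1.02 in ZEB2 shRNA cells (adjusted p = 0.079). The 7 pluripotent cell markers matched were all above 3 counts in every library at day 0, with summed levels of 3980.1 to 4810.2 CPM.

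Levels below are CPM scaled by TMM factors over the 30 libraries used. Comparisons are log2 fold changes (± standard error) from edgeR's quasi-likelihood test fitted on all genes of a day, or on all days of a line, and a change is called at a Benjamini-Hochberg adjusted p below 5% over all genes tested. All comparisons of a day share the same 2 WT libraries. In cultures of mixed cells fewer cells of a type and less RNA per cell cannot be told apart.

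The ligands followed one another in WT cells. Per kilobase of exon, SPRY2 (33.3 ± 1.17 RPKM, mean ± SD, n = 2), SPRY1 (27.2 ± 0.526) and FGF2 (23.3 ± 0.176) were the 3 highest of the 10 genes at day 0, and FGF17 was by far the highest at day 2 (269 ± 23.9), ahead of SPRY2 (29.3 ± 0.384) and FGF4 (16.4 ± 0.0227). At day 6 FGF8 (21.5 ± 6.5) and SPRY2 (19.9 ± 0.047) led and could not be ordered beyond their spread, followed by FGF10 (7.34 ± 0.0199). At day 10 SPRY2 (16.1 ± 3.15) led. Behind it came SPRY1 (8.12 ± 1.49) and FGF10 (7.29 ± 0.261), then FGF8 (5.93 ± 0.591) and FGF9 (5.15 ± 0.939), and neither of these pairs could be ordered beyond its spread. Between days 0 and 2, FGF4, FGF10 and FGF17 rose and FGF2 and SPRY1 fell in WT cells, 5 of 10 genes against 44.1% of all genes tested. Between days 2 and 6, FGF8, FGF9 and FGF10 rose and FGF2, FGF4, FGF17, FGF19, SPRY1 and SPRY2 fell, 9 of 10 against 49.8%. Between days 6 and 10, FGF9, FGF18 and SPRY1 rose and FGF2, FGF4, FGF8 and FGF19 fell, 7 of 10 against 57.5%. The last fall of FGF4, to 0 counts, was not called without WT replicate 3 of day 10.

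**Figure D1:**
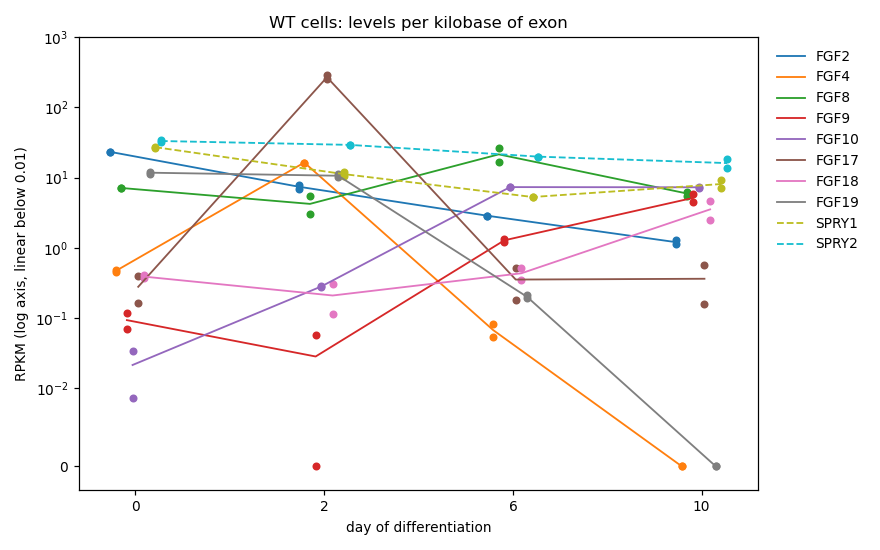
Levels of the 10 genes in WT cells by day of differentiation, in RPKM (log axis, linear below 0.01), with a point per library and a line through the mean of the 2 libraries of a day. FGF17 and FGF4 peak at day 2 and FGF10 joins from day 6, while FGF4 and FGF19 are at 0 counts at day 10.

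FGF2, the ligand that is also supplied in the stem cell medium, fell at every step in WT cells. It was at 156 and 154 CPM at day 0, 52.6 and 46.2 at day 2, 19.2 and 19 at day 6 and 8.51 and 7.53 at day 10. The 3 falls were -1.60 ± 0.11, -1.39 ± 0.11 and -1.21 ± 0.13 on the log2 scale, and no day overlapped the next. ZNF503 shRNA cells did not follow this course at first: FGF2 was at 114 and 120.0 CPM at day 0, below WT (-0.42 ± 0.09, adjusted p = 0.023), and still at 109 and 111 at day 2, above WT (1.10 ± 0.10, adjusted p = 1.6e-06). The change from day 0 to day 2 was thus -1.60 in WT cells and -0.05 in ZNF503 shRNA cells, and the difference between these changes was 1.54 ± 0.13 (adjusted p = 4.4e-07). By day 6 all 4 lines were between 16.8 and 23.0 CPM. The day 0 difference of ZNF503 shRNA cells was lost without any 1 of the 4 libraries compared, where it was -0.45 to -0.39.

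ZEB2 shRNA cells began with more FGF2 than WT cells, 244 and 284 CPM at day 0 (0.74 ± 0.09, adjusted p = 0.0014), and were at 48.2 and 46.6 at day 2, where no difference passed. NKX2-5 shRNA cells began at 159 and 172 CPM and were lower than WT at day 2, at 29.3 and 29.5 (-0.78 ± 0.10, adjusted p = 0.00011). The order at day 2 was therefore ZNF503 shRNA, then WT and ZEB2 shRNA cells together, then NKX2-5 shRNA cells. At day 10 the 2 libraries of NKX2-5 shRNA cells were at 120.5 and 30.8 CPM, both above the 8.51 and 7.53 of WT and the 11 and 12.1 of ZEB2 shRNA cells. This was the only comparison with WT in which FGF2 passed the 8-fold threshold of the study for that day (3.24 ± 0.59, adjusted p = 0.0048). It was 1.94 without NKX2-5 shRNA replicate 1 and 3.91 without replicate 2, and the call was lost without WT replicate 3 (3.34, adjusted p = 0.051) or replicate 4 (3.17, adjusted p = 0.053). NUDT6, whose exons overlap those of FGF2, was at 2.91 and 1.98 CPM in these NKX2-5 shRNA libraries and 8.40 and 7.21 in WT, a lower level (-1.67 ± 0.38, adjusted p = 0.012) beside the higher FGF2.

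FGF4, a ligand of the primitive streak, exceeded 2 CPM at day 2 and on none of the other days sampled. It was at 1.55 and 1.41 CPM in WT cells at day 0, 51.9 and 52.0 at day 2 and 0.26 and 0.168 at day 6 (6 and 7 counts), and every library of every line held 0 counts at day 10. The day 2 rise was 5.18 ± 0.21 and the day 6 fall -7.99 ± 0.27 in WT cells. NKX2-5 shRNA (48.9 and 57.6 CPM) and ZEB2 shRNA cells (44.1 and 46.5) did not differ from WT at day 2 by the test. ZNF503 shRNA cells were lower both at day 0, at 0.45 and 0.359 CPM (-1.89 ± 0.33, adjusted p = 0.0083), and at day 2, at 27.0 and 31.1 (-0.90 ± 0.12, adjusted p = 7.9e-05). The day 0 difference rests on 20 and 26 counts, and its call was lost without any 1 of the 4 libraries compared (-2.05 to -1.71). The rise itself was larger in ZNF503 shRNA cells, 6.23 ± 0.26, than in WT cells (difference 1.03 ± 0.27, adjusted p = 0.011).

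FGF17, a ligand of the FGF8 subfamily, had the steepest course of the 10 genes in WT cells, from 0.213 and 0.523 CPM at day 0 to 333 and 378 at day 2 and back to 0.693 and 0.241 at day 6. At day 2 NKX2-5 shRNA (269 and 329 CPM) and ZEB2 shRNA cells (344 and 391) did not pass the test against WT, and ZNF503 shRNA cells were at 56.0 and 65.3 with no overlap (-2.61 ± 0.13, adjusted p = 3.9e-09). In ZNF503 shRNA cells too FGF17 rose from day 0, by 8.43 ± 0.25, which was less than in WT cells (difference -1.54 ± 0.52, adjusted p = 0.038). That difference was between -2.30 and -1.04 with a library left out, and its call was lost without WT replicate 1 or ZNF503 shRNA replicate 2 of day 0, or without ZNF503 shRNA replicate 1 or WT replicate 2 of day 2. Directly compared at day 2, FGF17 was higher in NKX2-5 shRNA (2.33 ± 0.13, adjusted p = 5.9e-09) and in ZEB2 shRNA cells (2.61 ± 0.13, adjusted p = 2.8e-09) than in ZNF503 shRNA cells, as FGF4 was (0.90 ± 0.12 and 0.66 ± 0.12). FGF17 and FGF4 therefore peaked on the same day in every line, with a lower peak of both in ZNF503 shRNA cells. At day 10, 1 of the NKX2-5 shRNA libraries held 4.15 CPM (87 counts), the other 0.803 (17 counts), and the difference from WT was 2.52 ± 0.98 (adjusted p = 0.071).

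FGF8, the ligand of the streak and later of the second heart field, was above the limit of detection in every library and, with SPRY1, had calls against WT on each of the 4 days. In WT cells it was at 8.27 and 8.40 CPM at day 0, 6.34 and 3.56 at day 2, 30.5 and 19.7 at day 6 and 6.44 and 7.42 at day 10. The rise to day 6 was 2.29 ± 0.29 and the fall after it -1.83 ± 0.29. In NKX2-5 shRNA cells FGF8 was at 4.54 and 2.63 CPM at day 0, 2.78 and 3.09 at day 2, 0.147 and 0.481 at day 6 (4 and 24 counts) and 0.191 and 0.189 at day 10 (4 counts each). It was thus below both WT libraries on every day sampled and fell by 3.13 ± 0.56 on the log2 scale at the step at which it rose in WT cells. That fall was -4.28 without NKX2-5 shRNA replicate 2 of day 6 and -2.57 without replicate 1. The differences from WT were -1.25 ± 0.31 at day 0 (adjusted p = 0.018), -0.83 ± 0.28 at day 2 (adjusted p = 0.042), -6.14 ± 0.39 at day 6 (adjusted p = 1.1e-07) and -5.14 ± 0.46 at day 10 (adjusted p = 0.00038). The day 6 value was -7.38 without NKX2-5 shRNA replicate 2. The call at day 0 was lost without NKX2-5 shRNA replicate 2 (-0.89), WT replicate 1 (-1.26) or WT replicate 2 (-1.24), and that at day 2 without NKX2-5 shRNA replicate 1 (-0.72) or 2 (-0.93) or WT replicate 1 (-0.33).

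ZNF503 shRNA cells differed in their course of FGF8 before day 6. They were at 2.2 and 2.82 CPM at day 0 (-1.73 ± 0.31 against WT, adjusted p = 0.0091), rose to 8.32 and 5.26 at day 2, where they overlapped WT, and were at 1.17 and 0.608 at day 6 (-4.85 ± 0.37, adjusted p = 6.1e-07). The change from day 0 to day 2 was 2.14 ± 0.45 higher than in WT cells (adjusted p = 0.0021). The day 0 call was lost without any 1 of the 4 libraries compared (-1.91 to -1.58). In ZEB2 shRNA cells no difference of FGF8 from WT passed on any day. They were at 26.3 and 23.9 CPM at day 6, between the 2 WT libraries, and at 7.35 and 5.76 at day 10, overlapping WT. Directly compared at day 6, FGF8 was lower in NKX2-5 shRNA than in ZEB2 shRNA cells (-6.15 ± 0.39, adjusted p = 1.1e-07) and higher in ZEB2 shRNA than in ZNF503 shRNA cells (4.86 ± 0.37, adjusted p = 7.3e-07).

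FGF19, an endocrine ligand that uses a Klotho co-receptor, was a gene of days 0 and 2. Over all lines it lay between 19.5 and 28.7 CPM at day 0 and between 18.5 and 26.9 at day 2, and none of the differences from WT on these days passed. In WT cells it was at 0.347 and 0.385 CPM at day 6 (a fall of -5.72 ± 0.25) and at 0 counts in both libraries at day 10. NKX2-5 shRNA cells kept more of it at day 6, 1.32 and 2.32 CPM (2.31 ± 0.63 against WT, adjusted p = 0.009). That call was lost without NKX2-5 shRNA replicate 2 (1.83, adjusted p = 0.10). At day 10 NKX2-5 shRNA cells held 6 and 10 counts and ZEB2 shRNA cells 16 and 6. The first passed the test against WT (adjusted p = 0.033), with a level at least 1.59-fold that of the WT limit of detection, and the call was lost without NKX2-5 shRNA replicate 2 or either WT library (adjusted p = 0.078, 0.14 and 0.086; fitted log2 fold changes 5.64, 6.05 and 6.18).

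**Figure D2:**
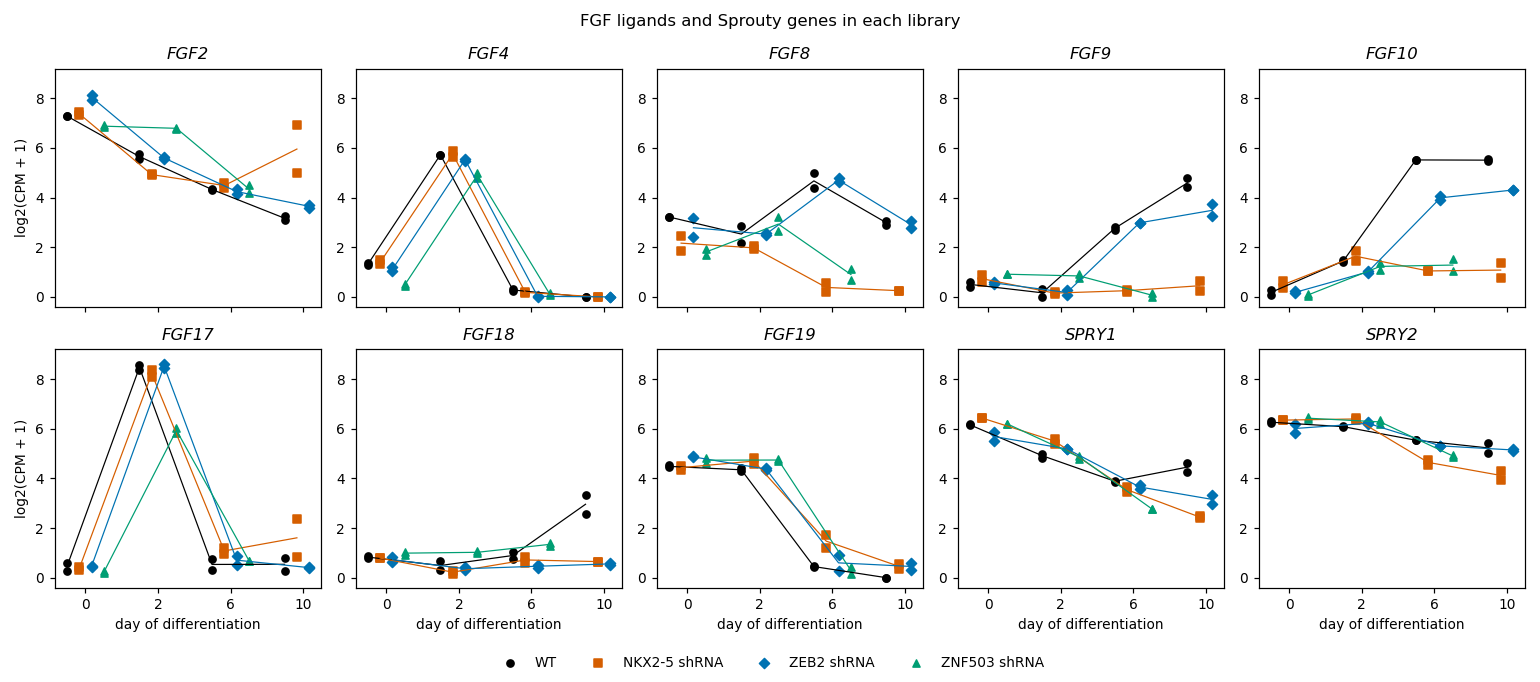
Level of each gene in each library as log2(CPM + 1), by day of differentiation, with a point per library, shifted sideways by line, and a line through the mean of the 2 libraries of a group. FGF8, FGF9 and FGF10 separate from day 6, where NKX2-5 shRNA and ZNF503 shRNA cells lie at 1.88 CPM or lower. FGF2 at day 10 is spread between 30.8 and 120.5 CPM in NKX2-5 shRNA cells.

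FGF10, a ligand of the second heart field, was lower than WT in all 3 knockdown lines at day 6. In WT cells it was near the limit of detection at day 0 (2 and 8 counts), at 1.67 and 1.78 CPM at day 2, 44.8 and 44.9 at day 6 and 43.5 and 45.7 at day 10, with rises of 3.70 ± 0.37 and 4.69 ± 0.22 at the first steps. The first of these was 3.04 without WT replicate 1 of day 0 and 4.92 without replicate 2. At day 2 NKX2-5 shRNA cells (2.6 and 1.69 CPM), ZEB2 shRNA cells (1.08 and 0.944) and ZNF503 shRNA cells (1.13 and 1.57) were close to WT and no difference passed. At day 6 NKX2-5 shRNA cells were at 1.07 and 1.06 CPM (-5.40 ± 0.24, adjusted p = 5.1e-09), ZNF503 shRNA cells at 1.88 and 1.05 (-4.96 ± 0.24, adjusted p = 1.5e-08) and ZEB2 shRNA cells at 15.9 and 13.9 (-1.57 ± 0.19, adjusted p = 0.0002). The 3 knockdown lines thus fell into 2 levels below WT. ZEB2 shRNA cells were 3.39 ± 0.24 above ZNF503 shRNA cells (adjusted p = 4.2e-07), NKX2-5 shRNA cells were below ZEB2 shRNA cells (-3.83 ± 0.23, adjusted p = 8.7e-08), and the libraries of the NKX2-5 shRNA and ZNF503 shRNA cells were not separated by the test. At day 10 NKX2-5 shRNA cells were at 0.716 and 1.61 CPM (-5.25 ± 0.38, adjusted p = 0.0002, and -5.94 without replicate 2) and ZEB2 shRNA cells at 19 and 18.6 (-1.25 ± 0.31, adjusted p = 0.032). The ZEB2 shRNA call at day 10 was lost without any 1 of the 4 libraries compared (-1.29 to -1.21) although no library overlapped WT.

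FGF9, a ligand of the epicardium and endocardium that acts on myocardium, was under 1 CPM in every library at days 0 and 2. It was at 5.50 and 6.11 CPM in WT cells at day 6 and 26.3 and 20.3 at day 10, with rises of 5.09 ± 0.51 and 2.04 ± 0.32. The first rise was 10.27 without WT replicate 1 of day 2 and 4.46 without replicate 2, since that day held 8 and 0 counts. ZEB2 shRNA cells were at 6.89 and 6.93 CPM at day 6, where no difference from WT passed, and at 8.50 and 12.2 at day 10 (-1.18 ± 0.39, adjusted p = 0.076). NKX2-5 shRNA cells were at 0.221 and 0.160 CPM at day 6 (6 and 8 counts, -4.97 ± 0.41, adjusted p = 9e-07) and at 0.191 and 0.567 at day 10 (4 and 12 counts, -5.92 ± 0.52, adjusted p = 0.00034, and -6.88 without replicate 2). ZNF503 shRNA cells held 2 and 0 counts at day 6, at the limit of detection and so at least 42.4-fold lower than WT (adjusted p = 9.8e-07). The fitted log2 fold change, -6.89, was -10.65 without ZNF503 shRNA replicate 1 and -5.80 without replicate 2. FGF9 thus exceeded 1 CPM in WT and ZEB2 shRNA cells and in neither of the other lines. At day 2 ZNF503 shRNA cells held 62 and 20 counts against 8 and 0 in WT (2.19 ± 0.77, adjusted p = 0.049), a call lost without ZNF503 shRNA replicate 1 (2.44) or 2 (2.02) or WT replicate 2 (1.54) and at 7.99 without WT replicate 1.

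FGF18, a ligand of the FGF8 subfamily, was below 1.7 CPM in all libraries up to day 6, and no difference from WT passed on days 0, 2 and 6. At day 2 it was at 0.988 and 1.08 CPM in ZNF503 shRNA cells (88 and 24 counts) and at 0.225 and 0.613 in WT cells (7 and 10 counts), with no overlap (1.38 ± 0.54, adjusted p = 0.076). There it was lower in NKX2-5 shRNA than in ZNF503 shRNA cells (-2.46 ± 0.55, adjusted p = 0.0027) and in ZEB2 shRNA than in ZNF503 shRNA cells (-1.82 ± 0.51, adjusted p = 0.015). At day 6 the differences from WT were -0.36 in NKX2-5 shRNA, -1.26 in ZEB2 shRNA and 0.85 in ZNF503 shRNA cells. At day 10 it was at 9.18 and 4.95 CPM in WT cells, a rise of 3.11 ± 0.46. NKX2-5 shRNA cells (0.572 and 0.567 CPM, 12 counts each) and ZEB2 shRNA cells (0.433 and 0.512, 14 and 12 counts) were lower there, by log2 fold changes of -3.62 ± 0.51 (adjusted p = 0.0018) and -3.91 ± 0.52 (adjusted p = 0.0044). Among the 10 genes, 2 ligands were called between ZEB2 shRNA and WT cells at day 10, FGF10 and FGF18. Of these FGF18 differed more. The ZEB2 shRNA call was lost without ZEB2 shRNA replicate 3 (-3.78, adjusted p = 0.063) or replicate 4 (-4.02, adjusted p = 0.058).

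SPRY1, the first of the feedback inhibitors, fell from day 0 to day 6 in WT cells and then rose. It was at 69.8 and 71.7 CPM at day 0, 30.9 and 27.6 at day 2, 14 and 13.6 at day 6 and 23.9 and 18.4 at day 10, with changes of -1.23 ± 0.14, -1.10 ± 0.14 and 0.66 ± 0.15. The last change had the opposite sign in NKX2-5 shRNA cells, which went from 9.85 and 11.5 CPM to 4.34 and 4.54 (-1.32 ± 0.17, adjusted p = 0.0008), and in ZEB2 shRNA cells, which went from 12.3 and 11 to 9.05 and 6.91 (-0.56 ± 0.18, adjusted p = 0.013, lost without ZEB2 shRNA replicate 1 of day 6 or replicate 4 of day 10). The difference between these changes and that of WT cells was not tested. Against WT at day 10, NKX2-5 shRNA cells were at -2.25 ± 0.30 (adjusted p = 0.0015) and ZEB2 shRNA cells at -1.41 ± 0.29 (adjusted p = 0.018), the second lost without any 1 of the 4 libraries compared (-1.61 to -1.21). ZNF503 shRNA cells were lower already at day 6, at 5.80 and 5.88 CPM (-1.24 ± 0.19, adjusted p = 0.00014). NKX2-5 shRNA cells were higher at day 2, at 41.3 and 47.8 CPM (0.57 ± 0.12, adjusted p = 0.0027), and ZEB2 shRNA cells lower at day 0, at 57.3 and 44.5 (-0.50 ± 0.12, adjusted p = 0.035, lost without ZEB2 shRNA replicate 2, at -0.33, WT replicate 1, at -0.52, or WT replicate 2, at -0.48).

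SPRY2 varied least of the 10 genes in WT cells, from 77.9 and 74.1 CPM at day 0 and 67.6 and 66.4 at day 2 to 45.5 and 45.6 at day 6 and 31.8 and 41.9 at day 10. Its only called step there was from day 2 to day 6 (-0.58 ± 0.13, adjusted p = 0.0049). No knockdown line differed from WT at days 0 and 2 by the test. At day 6 NKX2-5 shRNA cells were at 22.2 and 26.1 CPM (-0.92 ± 0.13, adjusted p = 0.0001) and ZNF503 shRNA cells at 29.9 and 28.1 (-0.66 ± 0.13, adjusted p = 0.0013), both below WT without overlap. ZEB2 shRNA cells, at 38.9 and 38.6 CPM, did not pass. At day 10 NKX2-5 shRNA cells were at 18.8 and 14.3 CPM (-1.15 ± 0.25, adjusted p = 0.009), a call lost without WT replicate 4 (-0.92, adjusted p = 0.059), and ZEB2 shRNA cells at 33.9 and 35.0, inside the WT range. Both Sprouty genes were therefore lower in NKX2-5 shRNA cells at day 10 and in ZNF503 shRNA cells at day 6, by less than the ligands FGF8, FGF9 and FGF10 in the same comparisons.

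**Figure D3:**
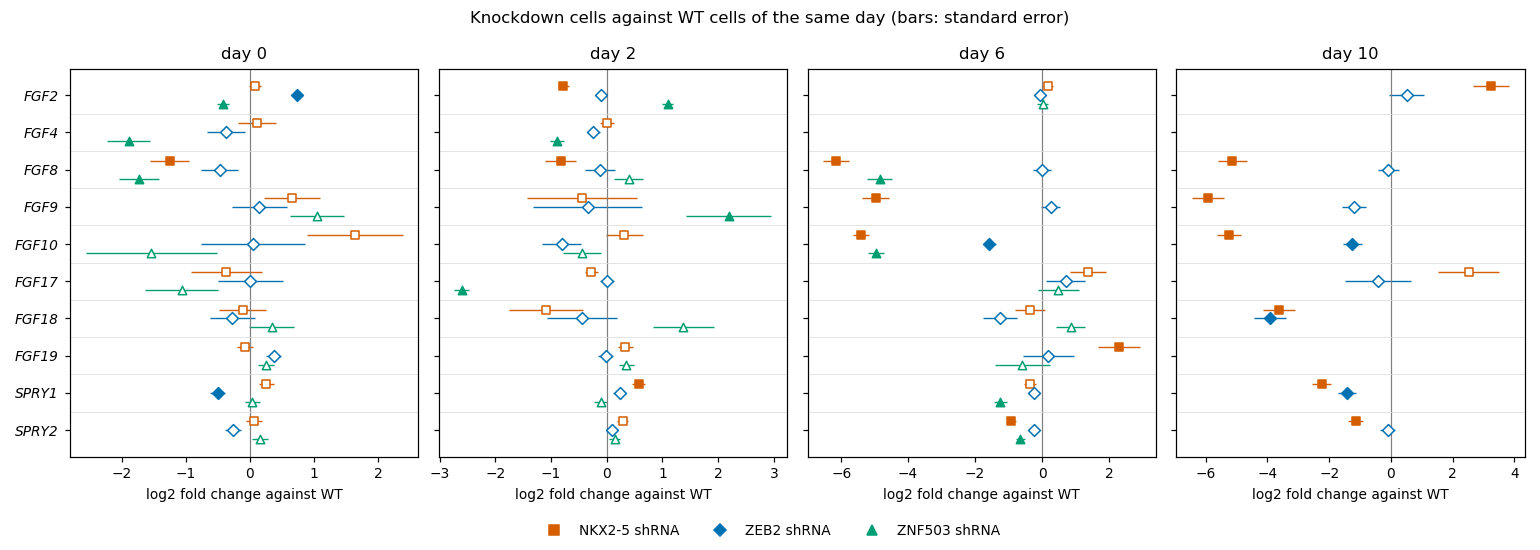
Log2 fold change of each gene against WT cells of the same day, with its standard error, in NKX2-5 shRNA, ZEB2 shRNA and ZNF503 shRNA cells (filled, adjusted p below 5%; open, above it). Scales differ between days, genes not tested are blank, and so are comparisons with a group at the limit of detection. FGF8 and FGF10 in NKX2-5 shRNA cells lie beyond -5 at days 6 and 10.

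The members called against WT, by line and day, stood beside very different backgrounds. At day 0, 1 of 10 genes passed in NKX2-5 shRNA cells (lower) against 15.9% of all genes tested, 2 in ZEB2 shRNA cells (1 higher, 1 lower) against 3.93%, and 3 in ZNF503 shRNA cells (all lower) against 7.53%. At day 2 the counts were 3 of 10 (1 higher, 2 lower) against 26.7%, 0 of 10 against 0.49% and 4 of 10 (2 higher, 2 lower) against 26.9%. At day 6 FGF4 was too low to be tested, and 5 of 9 (1 higher, 4 lower) passed in NKX2-5 shRNA cells against 49.1%, 1 of 9 (lower) in ZEB2 shRNA cells against 11%, and 5 of 9 (all lower) in ZNF503 shRNA cells against 55.7%. At day 10, 8 of 9 passed in NKX2-5 shRNA cells (2 higher, 6 lower) against 43.9%, and 3 of 9 in ZEB2 shRNA cells (all lower) against 18.2%. The counts at day 6 were near the background in each line. Median log2 fold changes over the members tested were -0.37, -0.07 and -0.66 at day 6 in NKX2-5, ZEB2 and ZNF503 shRNA cells, and -2.25 and -0.41 at day 10 in NKX2-5 and ZEB2 shRNA cells, where the medians over all genes lay between -0.03 and 0.03. For ZEB2 shRNA cells at day 2, where edgeR called 0, DESeq2 called 0 too, and 1 gene had an unadjusted p under 0.05.

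Whether a line changed from day to day as WT cells did was tested gene by gene. From day 0 to day 2 the change differed from that of WT cells for 1 of 10 genes in NKX2-5 shRNA cells (FGF2) against 3.99% of all genes tested, for 2 in ZEB2 shRNA cells (FGF2 and SPRY1) against 1.83%, and for 4 in ZNF503 shRNA cells (FGF2, FGF4, FGF8 and FGF17) against 25%. From day 2 to day 6 it differed for 8 of 10 in NKX2-5 shRNA cells (all but FGF4 and FGF18) against 46% and for 7 of 10 in ZNF503 shRNA cells (all but FGF4, FGF18 and FGF19) against 48.2%. In ZEB2 shRNA cells edgeR called 0 of 10 there against 5.89%, 4 genes had an unadjusted p under 0.05, and DESeq2 called 0.

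Receptor transcripts differed from WT in the opposite direction to FGF8, FGF9 and FGF10 at day 6. Of the 7 receptors and co-receptors on the list, 6 were higher in NKX2-5 shRNA cells (median log2 fold change 1.97) and 6 in ZNF503 shRNA cells (2.09), against 49.1% and 55.7% of all genes tested in either direction. In ZEB2 shRNA cells (0.36) edgeR called 0, where 5 had an unadjusted p under 0.05. FGFR4, the main receptor for FGF19, was at 317 and 308 CPM on average in NKX2-5 and ZNF503 shRNA cells against 25.4 in WT (3.62 ± 0.25 and 3.58 ± 0.25), and KLB, the Klotho co-receptor it works with, at 31.5 and 29.2 against 4.66 (2.73 ± 0.23 and 2.62 ± 0.23). FGFR1, the receptor needed in early mesoderm, was at 760 and 802 CPM against 186 (2.02 ± 0.20 and 2.10 ± 0.20). At day 10, 4 of the 6 tested were higher in NKX2-5 shRNA cells and 3 of 6 in ZEB2 shRNA cells (43.9% and 18.2% of all genes). FGFR4 had the largest change there in both, 4.49 ± 0.31 and 2.96 ± 0.29. At day 2 the calls went the other way, with 2 of 5 lower in NKX2-5 shRNA cells and 3 of 5 in ZNF503 shRNA cells (26.7% and 26.9% of all genes), FGFR3 by -1.19 ± 0.13 and -1.47 ± 0.14. In WT cells FGFR4 fell from day 0 to day 2 (-1.82 ± 0.29) and rose to day 6 (1.12 ± 0.29). KLB rose from day 2 to day 6 too (4.97 ± 0.69), from an average of 0.113 CPM. That average lies near the limit of detection, so the size of the rise depends on the fit.

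Of the 10 other feedback genes, 3 were higher and 4 lower in NKX2-5 shRNA cells at day 6, 3 higher and 2 lower in ZEB2 shRNA cells, and 3 higher and 3 lower in ZNF503 shRNA cells, beside 49.1%, 11% and 55.7% of all genes, so that the ZNF503 shRNA count was near the background. DUSP6, a phosphatase that inactivates ERK, was the one that differed most in NKX2-5 and ZNF503 shRNA cells, at 15.7 and 24.1 CPM on average against 535 in WT (-5.09 ± 0.20 and -4.48 ± 0.20), and was at 219 in ZEB2 shRNA cells (-1.28 ± 0.17). SPRY4, another Sprouty gene, was lower in NKX2-5 shRNA cells (-2.93 ± 0.21) and in ZNF503 shRNA cells (-1.67 ± 0.20) and higher in ZEB2 shRNA cells (0.72 ± 0.19). FLRT3, a membrane partner of FGF receptors that is made together with FGF ligands and is known to promote rather than limit their signal, was among the higher genes in NKX2-5 shRNA (1.44 ± 0.19) and ZNF503 shRNA cells (1.16 ± 0.18). DUSP4, another phosphatase, was higher in all 3 lines, most in ZEB2 shRNA cells (1.49 ± 0.20). At day 2, ZNF503 shRNA cells had 5 of 10 lower and none higher (26.9% of all genes), led by FLRT3 (16.3 against 75.2 CPM, -2.27 ± 0.12). At day 10 the largest differences in NKX2-5 shRNA cells were a higher FLRT3 (807 against 105 CPM, 2.95 ± 0.31) and a lower DUSP6 (-2.74 ± 0.20), and in ZEB2 shRNA cells a higher DUSP4 (2.64 ± 0.37) and FLRT3 (1.28 ± 0.29).

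**Figure D4:**
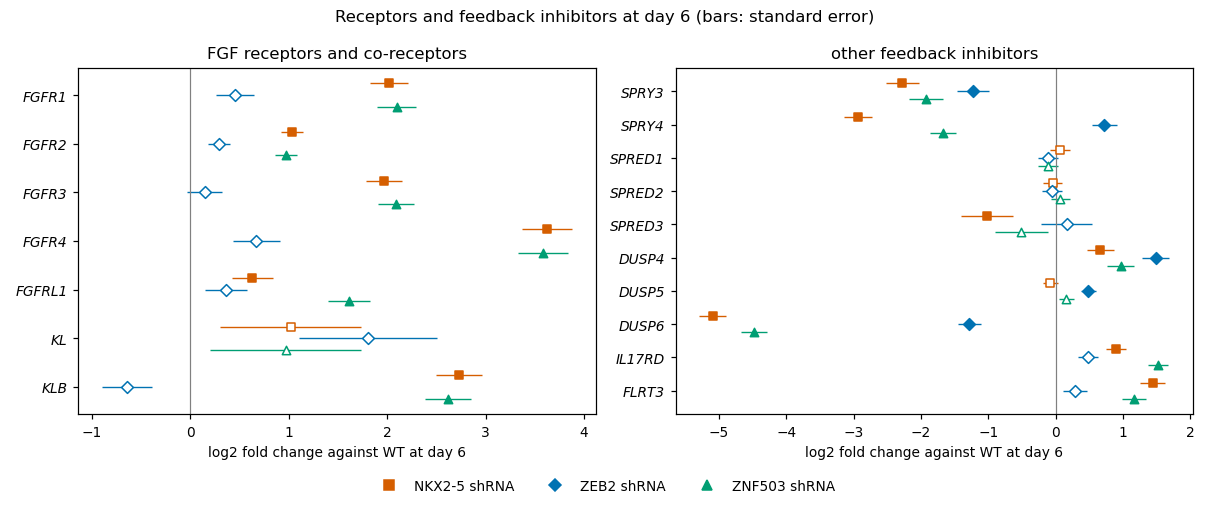
Log2 fold change against WT at day 6, with its standard error, of FGF receptors and co-receptors (left) and of the other feedback genes (right), in NKX2-5 shRNA, ZEB2 shRNA and ZNF503 shRNA cells (filled, adjusted p below 5%; open, above it). FGFR1 to FGFR4 lie between 0.98 and 3.62 in NKX2-5 and ZNF503 shRNA cells, and DUSP6 is the lowest feedback gene in all 3 lines.

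Among 10 transcription factors and early genes that respond to ERK, the ETS factors ETV1 and ETV5 differed most from WT at day 6 in NKX2-5 and ZNF503 shRNA cells. ETV1 was at 1.58 and 1.86 CPM on average in NKX2-5 and ZNF503 shRNA cells at day 6 against 95.8 in WT (-5.90 ± 0.21 and -5.68 ± 0.21), and at 39.5 in ZEB2 shRNA cells (-1.27 ± 0.16). ETV5 was lower in NKX2-5 (-3.22 ± 0.27) and ZNF503 shRNA cells (-2.78 ± 0.27) too. Not all of the list went this way: 3 of 9 tested were lower and none higher in NKX2-5 shRNA cells, 3 of 9 lower and 3 higher in ZNF503 shRNA cells, and 2 of 9 lower and 1 higher, IER3 (1.39 ± 0.17), in ZEB2 shRNA cells, beside 49.1%, 55.7% and 11% of all genes. On earlier days other genes of the list differed most: EGR1, an immediate early factor, was higher in ZNF503 shRNA cells at day 0 (3.42 ± 0.33) and lower in ZEB2 shRNA cells at day 2 (-1.86 ± 0.25), and PHLDA1 was higher in ZNF503 shRNA cells at day 2 (1.57 ± 0.10). At day 10 ETV1 remained lower in NKX2-5 shRNA (-3.83 ± 0.50) and ZEB2 shRNA cells (-2.10 ± 0.46), while MYC was higher in NKX2-5 shRNA cells (2.57 ± 0.39). The 17 transducers between receptor and ERK were called about as often as all genes (49.1% and 55.7%): 9 were higher and none lower in NKX2-5 shRNA cells at day 6 with a median of 0.30, and 7 higher and 1 lower in ZNF503 shRNA cells with a median of 0.25, the largest being PLCG1, a phospholipase bound by the receptors (0.85 ± 0.16 and 1.04 ± 0.16).

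The 14 other FGF genes were mostly low. Only 5 were tested at day 6, where 2 were lower and 1 higher in NKX2-5 and in ZNF503 shRNA cells (49.1% and 55.7% of all genes), and FGF7, a mesenchymal ligand, was lower in all 3 lines (-2.12 ± 0.48, -3.17 ± 0.56 and -3.06 ± 0.58 in NKX2-5, ZEB2 and ZNF503 shRNA cells) from 1.51 CPM in WT. FGF7 averaged 0.354, 0.186 and 0.183 CPM in these lines. A count of 3 stood for 0.0488 to 0.217 CPM at day 6, so the ZEB2 and ZNF503 shRNA values lie near the limit of detection. FGF13, an intracellular FGF homologous factor that is not a ligand, was at 3.92 CPM in NKX2-5 shRNA cells at day 10 against 47.4 in WT (-3.59 ± 0.28). FGF12, of the same intracellular group, rose from 31.5 to 83.6 CPM between days 0 and 2 in WT cells and fell to 7.90 at day 6. In ZEB2 shRNA cells at day 10, 3 of the 7 tested were called, all lower, against 18.2% of all genes. FGF23 (-3.26 ± 0.82) and FGF1 (-3.08 ± 0.85) were among them, at averages of 0.135 and 0.151 CPM against 1.36 and 1.30 in WT. The ZEB2 shRNA averages lie near the limit of detection.

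Markers of other cell types were compared with WT in the same way. Of all genes tested, 49.1% were called at day 6 in NKX2-5 shRNA, 11% in ZEB2 shRNA and 55.7% in ZNF503 shRNA cells. At day 10 the shares were 43.9% in NKX2-5 and 18.2% in ZEB2 shRNA cells. At day 2 they were 26.7% in NKX2-5 and 26.9% in ZNF503 shRNA cells. The 12 cardiac markers include NKX2-5, the target in NKX2-5 shRNA cells, so its lower level there was set by the design. At day 6, all 12 cardiac markers were lower in NKX2-5 and in ZNF503 shRNA cells and 8 of 12 in ZEB2 shRNA cells, with summed levels of 34608 to 42352 CPM in WT, 7379 to 7517 in NKX2-5 shRNA, 16263 to 17452 in ZEB2 shRNA and 10036 to 10480.2 in ZNF503 shRNA cells. All 10 endoderm and liver markers were higher there in NKX2-5 (5833 to 5957 CPM) and ZNF503 shRNA cells (3216 to 3287) than in WT (360.2 to 819), and in ZEB2 shRNA cells (494 to 748) 1 was higher and 1 lower. At day 10 all 12 cardiac markers were lower and all 10 endoderm and liver markers higher in NKX2-5 shRNA cells (3323 to 4319 and 27237 to 38221 CPM) than in WT (67573 to 76550.5 and 1488 to 3725), as were 9 of 10 blood and endothelial markers (1027 to 1256 against 350.0 to 458). In ZEB2 shRNA cells at day 10, 6 of 12 cardiac markers were lower (12913 to 17689 CPM) and 9 of 10 endoderm and liver markers higher (7352 to 8659). At day 2 all 8 mesendoderm markers were lower in ZNF503 shRNA cells (1015 to 1209.7 CPM) than in WT (2965 to 3067). In NKX2-5 shRNA cells at day 2 their sum was higher (4562 to 4686 CPM), with 2 called higher, CER1 and GSC, and 2 lower, MESP1 and TBX6. At day 6 it was 198 to 214 CPM in ZEB2 shRNA cells against 21.4 to 23.1 in WT, with EOMES, CER1 and LHX1 called higher and none lower. Each of the cardiac, endoderm and blood lists was detected above 3 counts for all its genes in the libraries of days 6 and 10 named, apart from the blood and endothelial list in WT, where 8 to 10 of 10 were. The part of these cell types in the differences of the FGF and Sprouty genes was not tested.

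Over the 15 group means several members ran together on the log2(CPM + 1) scale, given here as a description, since the groups share lines, days and, within a day, similar depths. FGF4 and FGF17 had r = 0.96 (rho = 0.38), SPRY1 and SPRY2 r = 0.91 (rho = 0.89), and FGF9 and FGF10 r = 0.89 (rho = 0.31), while FGF19 went with SPRY2 (r = 0.87, rho = 0.74), SPRY1 (r = 0.86, rho = 0.73) and FGF2 (r = 0.78, rho = 0.81), and FGF2 and FGF10 ran against each other (r = -0.80, rho = -0.85). FGF4 and FGF9 were each above 2 CPM in 4 of the 15 groups. The genes of the whole table whose course was most like a member's were, for FGF2, SLCO4A1, LRAT and TNFRSF10A (r = 0.96 each). FGF4 was nearest to PPIAP46, GSC and OR52A1 (0.99, 0.98 and 0.98), and FGF17 to IL33, DKK4 and IFIT2 (all 0.99). FGF8 had the weakest likeness to any gene but FGF18, with H2AZ2, SLC25A11 and ZNRF2 (0.93, 0.88 and 0.88), and FGF18 was nearest to SCN2B and KCNIP4-IT1 (0.92 each). FGF19 was nearest to FOXD3, MMP25 and POU5F1B (0.99, 0.98 and 0.98). FGF10 was nearest to SYNPO2L, ISL1-DT and SMYD1 (0.98, 0.98 and 0.97) and FGF9 to DNAJC5G, CEND1 and UNCX (0.98, 0.97 and 0.97). SPRY1 was nearest to SNORD116-27, SNORD82 and ETAA1 (0.97 each), and SPRY2 to FAHD2A, SCLT1 and ZNF273 (0.98 each).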

How the data were processed

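Human H1 embryonic stem cells, 4 lines over 4 days, were profiled by RNA sequencing. The deposited values are raw read counts per RefSeq gene: the authors prepared stranded total RNA libraries, mapped both ends of each fragment with Tophat 2.0.14 (bowtie 2.2.1.0, samtools 0.1.19.0) to the human genome, build hg19 (GRCh37), and counted reads per gene with RSeQC. Whether counting used strand is not given in the sources used here. Of 34 library columns 30 were used. The other 4, from day 10, hold values that could not be assigned to accessions. The series design calls the samples of a group biological replicates.

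Accessions were named from the RefSeq gene table (GRCh38.p14, for names only): 40285 of 41627 rows (96.8%), holding 97.1% of all counts, gave 23189 symbols, of which 7913 had several rows. The row with the largest total stood for the gene. Counts were tested with edgeR 4.0.16 (R 4.3.3, limma 3.58.1) after TMM scaling and filterByExpr, by its quasi-likelihood test (glmQLFit, glmQLFTest), with p-values adjusted by Benjamini-Hochberg across every gene in a fit. A call is an adjusted p below 5%. The standard error is the log2 fold change divided by the root of the F statistic. Fits held all groups of a day (knockdown against WT, and lines against each other), all days of a line (steps), or days 0 and 2 or days 2 and 6 together (differences between changes). RPKM used the exon length of the MANE Select transcript in GENCODE (GRCh37), in place of the length of the RefSeq row that had been planned. Promoter windows came from RefSeq (GRCh38.p14), whose table holds 5 of the 10 genes.

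All 10 members are described, with values for the comparisons that were called or that the text turns on. Other genes were named by rule: from each pathway list the up to 2 called genes of largest fold change with at least 1 CPM in the higher group, for each member the 3 genes most correlated over group means (1 of those for FGF18 is not reported here), the 3 targeted genes and genes overlapping a member. FGFR1, FLRT3, DUSP4 and SPRY4 are given at day 6 also in comparisons for which this rule did not name them, chosen after their values were seen. The members and lists were chosen with earlier results of these data known. Alternatives were DESeq2 1.42.0, other scalings, no filter, the row with the second largest total, 1 fit of all groups, the replicate number as a block, and each library left out in turn.

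Counts of 3 or fewer were taken as the limit of detection, which covers counting error only. In data simulated on ZNF503 shRNA against WT cells at day 2 (16289 genes), the test recovered 49.0% of 1.5-fold, 68% of 2-fold, 94% of 4-fold and 98% of 8-fold changes, with 7 false calls. The simulated spread depended only on a gene's level, and far fewer genes changed than were called in the data. Groups whose replicates differed more, such as NKX2-5 shRNA cells at day 10, were not simulated.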

Additional observations from a re-analysis of the deposited data

Results flagged for a closer look

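The change of a gene between days was compared with that of WT cells by an interaction term in edgeR. Values are differences of log2 changes (± standard error, adjusted p), and none of the groups had enough libraries for a search for outlying ones.

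From day 0 to day 2, FGF2 differed in all 3 knockdown lines: by -0.86 ± 0.13 (adjusted p = 0.00097) in NKX2-5 shRNA, by -0.83 ± 0.13 (adjusted p = 0.0022) in ZEB2 shRNA and by 1.54 ± 0.13 (adjusted p = 4.4e-07) in ZNF503 shRNA cells. SPRY1 differed in ZEB2 shRNA cells by 0.75 ± 0.16 (adjusted p = 0.027). In ZNF503 shRNA cells FGF4 differed by 1.03, FGF8 by 2.14 and FGF17 by -1.54 (adjusted p = 0.011, 0.0021 and 0.038).

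From day 2 to day 6, NKX2-5 shRNA cells differed by 0.94 for FGF2, 1.76 for FGF17 and 1.99 for FGF19, and by -5.32 for FGF8, -4.53 for FGF9, -5.74 for FGF10, -0.95 for SPRY1 and -1.21 for SPRY2. The adjusted p-values of these 8 lay between 4.9e-09 (FGF10) and 0.0041 (FGF19). ZNF503 shRNA cells differed by 3.17 for FGF17, and by -1.08 for FGF2, -5.26 for FGF8, -9.07 for FGF9, -4.50 for FGF10, -1.15 for SPRY1 and -0.81 for SPRY2, with adjusted p-values from 1e-07 (FGF10) to 0.00038 (SPRY2). FGF2, FGF8 and FGF17 had opposite signs in ZNF503 shRNA cells at the 2 steps. Both differences use the same day 2 libraries, with opposite sign. A deviation at day 2 alone would give such a pair, so the signs are not a separate result. The FGF9 values rest on WT cells with 8 and 0 counts at day 2 and, in ZNF503 shRNA cells, on 2 and 0 counts at day 6, so their size depends on the fit. With a library left out they were -10.16 to -3.90 in NKX2-5 shRNA and -14.70 to -7.96 in ZNF503 shRNA cells, and FGF17 in NKX2-5 shRNA cells was 1.02 to 2.53 and, from day 0 to day 2, -2.30 to -1.04 in ZNF503 shRNA cells. Calls were lost in this way for FGF9 (without NKX2-5 shRNA replicate 1 of day 2) and FGF17 (without WT replicate 2 of day 6) in NKX2-5 shRNA cells from day 2 to day 6, and from day 0 to day 2 for FGF4 (without ZNF503 shRNA replicate 2 of day 0) and FGF17 (4 of 8 libraries) in ZNF503 shRNA cells and for SPRY1 in ZEB2 shRNA cells (7 of 8 libraries).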

How the results depend on the processing

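Of 165 calls of single members in all comparisons, none changed sign under any of the alternatives run. The number of members called in a comparison moved by more than 1.5 times in these cases, and the cause was not tested. Against WT, the count in ZEB2 shRNA cells at day 0 was 2, and 1 without TMM factors, 0 in 1 fit of all groups and 1 with the replicate block. In NKX2-5 shRNA cells at day 2 it was 3, and 5 without a filter, 1 in the fit of all groups and 5 with the block. In ZEB2 shRNA cells the fit of all groups gave 2 in place of 1 at day 6, 5 in place of 3 at day 10, and 2 in place of 4 for the step from day 6 to day 10. Between NKX2-5 and ZEB2 shRNA cells at day 2 it was 3, and 5 without a filter, 0 in the fit of all groups and 6 with the block. For changes against WT in ZEB2 shRNA cells it was 1 in place of 2 without TMM factors (days 0 to 2) and 1 in place of 0 without a filter (days 2 to 6). Without TMM factors the median log2 fold change of all genes moved furthest against WT at day 2 in NKX2-5 shRNA cells (-0.13) and at day 10 in ZEB2 shRNA cells (0.21), and in WT cells between days 0 and 2 (0.12) and days 2 and 6 (-0.18). The share of all calls that were higher then went from 48.9% to 25.8%, 57.9% to 73.3%, 47.5% to 59.9% and 52.0% to 38.5% in these 4 comparisons, and from 51.8% to 40.5% against WT at day 0 in NKX2-5 shRNA cells.

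With a library left out, a group of 1 is assumed to vary like the others, and fewer samples are fitted. The counts were then, against WT, 0 to 1 (NKX2-5 shRNA), 1 to 2 (ZEB2 shRNA) and 0 to 0 (ZNF503 shRNA, from 3) at day 0, and 5 to 8 (NKX2-5 shRNA) and 0 to 1 (ZEB2 shRNA, from 3) at day 10. For steps they were 2 to 4 and 2 to 5 in NKX2-5 shRNA cells (days 0 to 2 and 6 to 10) and 4 to 7 and 2 to 4 in ZEB2 shRNA cells. Between lines they were 1 to 3 (NKX2-5 and ZEB2, day 2), 3 to 5 (ZEB2 and ZNF503, day 2), 0 to 3 (NKX2-5 and ZNF503, day 6) and 3 to 6 (NKX2-5 and ZEB2, day 10), and for the change from day 0 to day 2 they were 1 to 2 (ZEB2 shRNA) and 2 to 4 (ZNF503 shRNA). 129 of the 748 member calls recomputed in this way were lost.

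The labels tie no replicate numbers between groups. Deviations of same-numbered samples correlated by -0.198 to 0.259, highest between NKX2-5 and ZEB2 shRNA cells at day 2. Whether such samples were handled together was not tested. With the replicate number as a block, 3 of 141 member calls were lost, SPRY1 in ZEB2 shRNA cells at day 0 (-0.51, adjusted p = 0.059), FGF9 in NKX2-5 shRNA cells (-2.31) and FGF18 in ZEB2 shRNA cells (-1.13), both from day 0 to day 2, and 8 were gained. With a pseudocount of 0.5, 2 or 3 of the 3 genes nearest to each member stayed. Depth limits FGF4, FGF9, FGF18 and FGF19, which lie near 3 counts on several days. Other members are limited in single groups. FGF10 held 2 and 8 counts in WT cells at day 0, and FGF17 4 and 7 in WT cells at day 10. FGF8 held 4 counts in each library of NKX2-5 shRNA cells at day 10.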
